A study of Homo sapiens with 6 samples.

Results

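The genes described here encode the proteins of the cytosolic ribosome. They were taken from the count table as the protein-coding genes whose symbols follow the RPL and RPS nomenclature, with RPLP0, RPLP1, RPLP2, RPSA, RPS4X and RPS27A included and RPS6 kinases, pseudogenes and Y chromosome copies left out. This gave 84 members among 57820 rows of the table, 52 of the large subunit and 32 of the small subunit. Of these, 7 are paralogs of another member (RPL3L, RPL7L1, RPL10L, RPL22L1, RPL26L1, RPL39L and RPS27L), and the other 77 are referred to as main copies. FAU, RACK1 and RPL36AL also encode ribosomal proteins, but their symbols fall outside the rule, and they were kept apart as a comparison. RNA was measured in HEK293, an immortalised line derived from human embryonic kidney. The 3 control libraries came from cells given DMSO vehicle for 12 h, and the 3 minocycline libraries came from cells given 100 µM minocycline for 12 h. All 6 cultures were the same line in the same serum-containing medium with penicillin and streptomycin, and none was heat shocked. Minocycline is a tetracycline antibiotic, a class that binds the small subunit of bacterial ribosomes and also inhibits the ribosomes of mitochondria. Replicates 1, 2 and 3 of both groups carry the batch labels 1, 2 and 3, so each batch holds 1 library of each treatment.

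Each cytosolic ribosome holds close to equal numbers of nearly all of its proteins, and their genes, scattered over the chromosomes, are transcribed at high and similar rates in growing cells. The mRNAs share a terminal oligopyrimidine tract (TOP), a C at the first transcribed base followed by a run of C and T. Through this tract the protein LARP1 and the growth-sensing kinase mTOR control how much of the mRNA is translated and how stable it is. The members lay on 21 chromosomes, with 12 of the 84 on chromosome 19 and 9 on chromosome 3.

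The start sites of several members are shown because the tract is the feature they share, and because the paralogs with and without it are compared further on. Each line gives the 15 bases before the annotated start and the first 15 bases of the transcript, 5′ to 3′ on the transcribed strand, from RefSeq on GRCh38.p14. Capitals mark a C followed by at least 4 bases each C or T that begins within 5 bases of the start, and a line with no capitals has no such run there. C or T bases that stand directly before the capitals, as in RPL26, RPL29 and RPL36A, are not marked, so the run can begin further upstream. The main copies come first, namely RPS3 (chr11:75399503-75399532, plus strand), RPLP0 (chr12:120201097-120201126, minus strand), RPLP2 (chr11:809952-809981, plus strand), RPL28 (chr19:55385917-55385946, plus strand), RPS16 (chr19:39435935-39435964, minus strand), RPL29 (chr3:51995881-51995910, minus strand) and RPL36A (chrX:101390996-101391025, plus strand).
RPS3: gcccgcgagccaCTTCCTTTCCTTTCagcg
RPLP0: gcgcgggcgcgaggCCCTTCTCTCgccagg
RPLP2: ttgcgtcggcgCCTTCCTTTTCCTCCCTgt
RPL28: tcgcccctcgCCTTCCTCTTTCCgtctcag
RPS16: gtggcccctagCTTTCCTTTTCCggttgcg
RPL29: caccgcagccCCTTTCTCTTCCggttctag
RPL36A: tttgcctcgcggtttCTTTCTTTCCgcgcc

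The next windows set a main copy beside its paralog. They are RPS27 (chr1:153990747-153990776, plus strand) and RPS27L (chr15:63157463-63157492, minus strand), RPL26 (chr17:8383179-8383208, minus strand) and RPL26L1 (chr5:172958714-172958743, plus strand), RPL22 (chr1:6199581-6199610, minus strand) and RPL22L1 (chr3:170870181-170870210, minus strand), and RPL7L1 (chr6:42879601-42879630, plus strand).
RPS27: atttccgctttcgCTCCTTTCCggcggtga
RPS27L: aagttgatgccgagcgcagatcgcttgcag
RPL26: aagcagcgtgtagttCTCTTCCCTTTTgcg
RPL26L1: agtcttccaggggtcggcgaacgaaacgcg
RPL22: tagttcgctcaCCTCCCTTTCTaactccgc
RPL22L1: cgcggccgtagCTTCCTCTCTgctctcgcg
RPL7L1: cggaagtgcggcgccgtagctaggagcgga
RPL22L1 had a tract, as its main copy does, whereas RPS27L, RPL26L1 and RPL7L1 had none within 5 bases of the start.

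A promoter window in the RefSeq table was found for 67 of the 84 members. The tract was found in 54 of these 67 (80.6%) and in 25.2% of 27305 genes in the same table. The 13 matched members without it were RPL6, RPL7L1, RPL9, RPL10L, RPL15, RPL17, RPL26L1, RPL27, RPS4X, RPS15, RPS26, RPS27L and RPS29. Other motifs were searched on both strands of the 300-base window, which runs from 250 bases before to 50 bases after the start. CCGGAAG, the core bound by ETS-family factors, was present in 35.8% of members and 12.2% of all genes. AAGATGGC, the core bound by YY1, was present in 10.4% of members and 3.52% of all genes. The GC box GGGCGG was present in 58.2% of members and 48.3% of all genes, and TATAAA was present in 10.4% and 14.0%. These are matches of letters and were not tested as binding sites, and an alternative start of the same gene could give another window.

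The libraries held 17303180 to 17835756 counts each, so depth differed little between them. All 6 HEK293 markers analysed (NEFM, INA, PAX2, VIM, KRT8 and KRT18) were present, with log2 fold changes between -0.38 (KRT8 and KRT18) and 0.25 (INA, where every minocycline library was above every control library). None was called with all libraries. Without control replicate 1 edgeR called KRT8 (-0.56, adjusted p 0.00833) and KRT18 (-0.58, adjusted p 0.0053) lower, beside 8.34% of all genes called lower. In contrast, markers of hepatocytes (ALB), leukocytes (PTPRC, CD3E), erythroid cells (HBB) and beta cells (INS) had at most 4 counts in any library. The fibroblast marker COL3A1 had 1.99 CPM in control and 1.74 CPM in minocycline libraries on average. Libraries differed within both groups. Over all genes tested, control replicate 1 and minocycline replicate 2 departed from their own group means in a similar way, with a correlation of 0.50 between these deviations. Minocycline replicate 3 departed in the direction of control replicates 2 and 3 (correlations of 0.28 and 0.30) and opposite to control replicate 1 (-0.40). A correlation of this kind measures a shared departure and cannot show whether libraries were exchanged. An exchange of control replicate 1 and minocycline replicate 2 was not tested, and the values without control replicate 1 carry that doubt. The main results are given with and without it. The p-values measure the spread between these libraries, which the series describes as biological replicates. In bulk RNA, fewer cells of a kind and less RNA per cell cannot be told apart, and counts show a gene relative to its library.

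The ribosomal protein genes took between 7.33% and 12.2% of all counts, and the size of this pool differed more between libraries of 1 group than between the groups. In control replicates 1, 2 and 3 the share was 7.39%, 11.0% and 12.2%. In minocycline replicates 1, 2 and 3 it was 8.32%, 7.33% and 10.8%. Control replicate 1 thus lay at the level of the lowest minocycline library, and minocycline replicate 3 lay close to control replicate 2. The group means were 10.2% ± 2.52 (SD, n = 3) for control and 8.81% ± 1.77 (SD, n = 3) for minocycline, and the groups overlapped. Wilson 95% intervals were narrow, for example 7.38% to 7.40% in control replicate 1, and cover counting error only. No test was made on this sum. The pool was not alone in this order of libraries. Other protein-coding genes with under 1000 bases of annotated exon took 0.839%, 1.18% and 1.17% of counts in the control libraries and 0.892%, 0.832% and 1.03% in the minocycline libraries. Their share was lowest in the same 3 libraries as the pool. RNA quality, RNA selection and fragment length of the libraries were not analysed here, and their part in the pool's size was not tested.

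**Figure D1:**
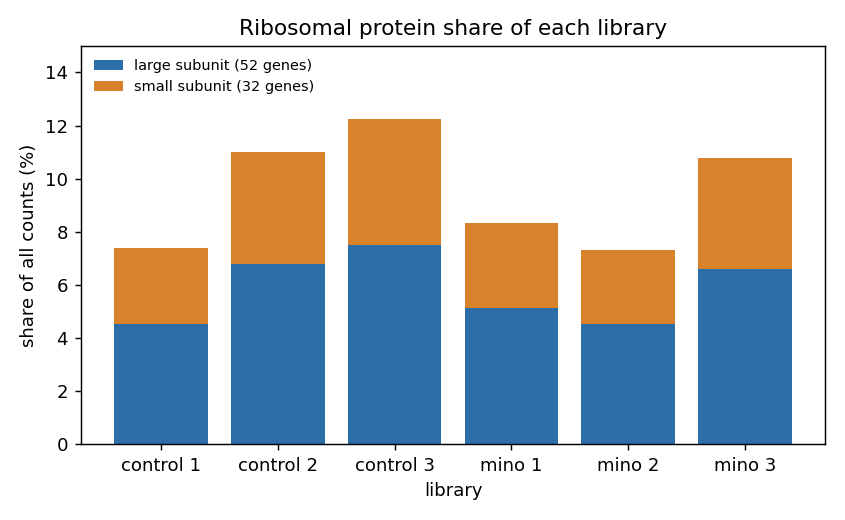
Share of all counts (%, vertical axis) taken by the 52 large subunit genes (blue) and the 32 small subunit genes (orange) in each of the 6 libraries (horizontal axis, mino for minocycline). The pool runs from 7.33% in minocycline replicate 2 to 12.2% in control replicate 3, and control replicate 1 stands at 7.39%.

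Both subunits followed the pool in nearly fixed proportion. Large subunit genes took 4.54%, 6.80% and 7.50% of counts in the control libraries and 5.14%, 4.51% and 6.60% in the minocycline libraries. Small subunit genes took 2.85%, 4.21% and 4.73% in the control libraries and 3.19%, 2.82% and 4.17% in the minocycline libraries. The ratio of large to small subunit counts was 1.60, 1.62 and 1.58 in the control libraries and 1.61, 1.60 and 1.58 in the minocycline libraries. Its highest value was 1.02 times its lowest, while the highest pool share was 1.67 times the lowest. Ribosomal protein pseudogene rows, 1595 in the table, also kept step, with 4.10 to 4.34 counts per 100 member counts in every library. Such rows can take reads from the parent genes, since their sequences are close copies.

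The same order of libraries appeared gene by gene. Of the 84 members, 72 had a mean of at least 100 CPM (counts relative to the library's total, adjusted with TMM factors) and 12 had less. Among the 72, all except RPL7L1, a paralog of RPL7, were below their own mean in control replicate 1 and in minocycline replicates 1 and 2. The same 71 genes were all above their own mean in control replicates 2 and 3 and in minocycline replicate 3. Their median deviations on the log2 scale were -0.37, 0.30 and 0.51 in the control libraries and -0.24, -0.42 and 0.21 in the minocycline libraries. RPL7L1 (hg19 chr6:42847354-42857663, plus strand) had 504, 478 and 476 CPM in the control libraries and 506, 511 and 457 CPM in the minocycline libraries, so it was higher in the 3 libraries where the other members were low and lower in the 3 where they were high.

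**Figure D2:**
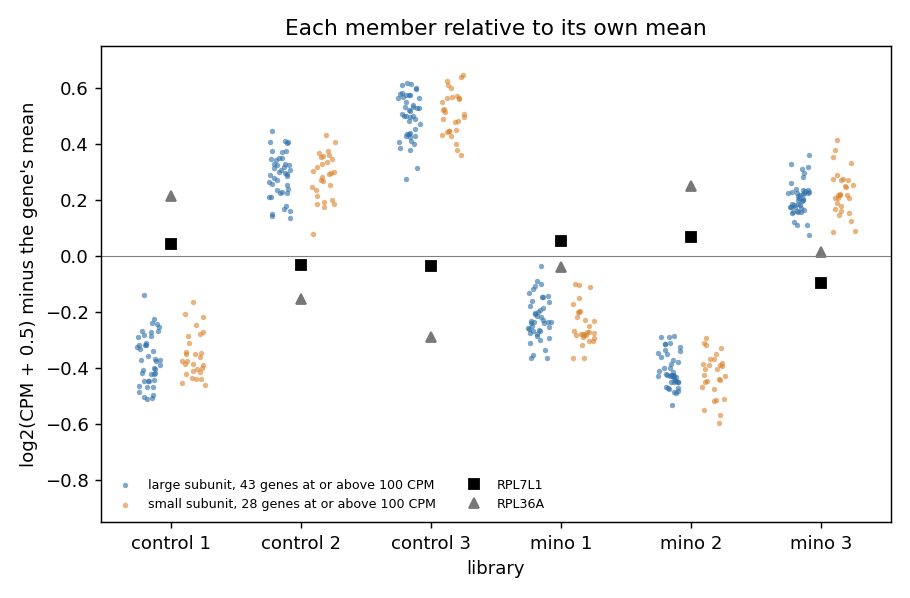
Deviation of each member from its own mean over the libraries (log2(CPM + 0.5), vertical axis) in each library (horizontal axis, mino for minocycline), for large (blue) and small (orange) subunit genes at or above 100 CPM, with RPL7L1 as squares and RPL36A as triangles. All 71 dots lie below 0 in control 1, mino 1 and mino 2 and above 0 in the other libraries, and RPL7L1 and RPL36A do not follow them.

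As a description over 6 libraries, the log2 level of a member correlated with the pool share with a median Pearson r of 0.985, and 74 of 83 members exceeded 0.9. The members make up the pool and share its libraries, so a high value is partly built in. RPL36A (-0.89) and RPL7L1 (-0.85) were the 2 members below 0. Between pairs of members the median r was 0.966 over 3403 pairs.

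The share of the pool held by a single gene was steadiest for RPS3, a protein at the mRNA entry channel. It held 2.34% of the pool on average, with a coefficient of variation of 1.26% over the libraries. RPS3 had 1685, 2631 and 3104 CPM in the control libraries and 1876, 1651 and 2537 CPM in the minocycline libraries. Its log2 fold change was -0.29 ± 0.25 (SE), and -0.50 without control replicate 1 (edgeR adjusted p 0.0483). RPL11, a partner of 5S rRNA, followed at 2.32%, then RPS16 at 2.51% and RPL7A at 2.63%. At the other end, RPL7L1 varied by 29.2% of its mean share. RPL7 varied by 12.4%, RPS23 by 9.85%, RPS29 by 9.74% and RPS27A, made as a fusion to ubiquitin, by 9.46%.

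Levels between genes were compared per kilobase of the gene's median annotated transcript length. Among the 5 highest were RPS2 (4047 CPM per kb, mean of all libraries), RPL28 (3783), RPL13 (3756) and RPS19 (3704). The protein of RPS2 lies at the mRNA entry channel. RPS2 had 2351, 3902 and 4540.4 CPM in the control libraries and 3013, 2480.3 and 3660.2 CPM in the minocycline libraries. RPS4X, on the X chromosome, was the member with the most counts at 4048 CPM before the correction for length. Among the 5 lowest of the members at or above 1 CPM were RPL3L (1.04 CPM per kb), RPS18 (7.17), RPL39L (13.3) and RPL36A (15.7). RPL10L, a retrogene copy of RPL10 active in testis, had 2 counts in minocycline replicate 3 and 0 counts in the other 5 libraries, and it was the single member that was not tested. RPL3L, the striated muscle paralog of RPL3, had 17 to 34 counts per library.

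For 4 of the low members the assignment of reads is uncertain. RPS18 (hg19 chr6:33239852-33244288, plus strand) was counted 46, 89 and 79 times in control and 48, 56 and 109 times in minocycline libraries, 427 in all, whereas its 6 pseudogene rows held 13132 counts. The 20 protein-coding genes nearest to RPS18 on chromosome 6 (hg19 chr6:33032346-33425321) were all below 5 CPM, compared with 43.5% of all protein-coding genes. RPL36A (hg19 chrX:100645812-100651143, plus strand) had 1274 counts and its 52 pseudogene rows 17617, and RPL17 (hg19 chr18:47014823-47018878, minus strand) had 2559 counts and its 50 pseudogene rows 10096. RPS10, RPL17 and RPL36A overlap readthrough genes that join them to a neighbour, and those rows held 0 to 2 counts in every library. The strand setting of the counting is not given in the sources used here, and antisense overlap adds to this uncertainty. The levels of these 4 genes are therefore table values, and may not be the amount of their mRNAs. Some higher members share part of this limit. Pseudogene rows held 113990 counts for RPS2, against 348538 in the gene, and 54620 for RPS28, against 59814 in the gene.

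Minocycline was then compared with vehicle over all genes with edgeR's quasi-likelihood test. In all 6 libraries, no ribosomal protein gene passed the threshold of an adjusted p of 0.05. The calls were 0 of 83 members tested, against 9 of 17225 genes (0.0522%), none of which was lower. DESeq2 and limma-voom also called 0 members. The fitted level was lower with minocycline for 81 of the 83 members, against 47.9% of all genes tested. The median log2 fold change was -0.30 over the members (all genes tested, 0.01), -0.30 for the large subunit and -0.32 for the small subunit. Adjusted p-values from edgeR with Benjamini-Hochberg correction ran from 0.820 to 0.975. Since the members moved together between libraries, the 81 lower values are not 81 separate observations.

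Unadjusted p-values under 0.05 were obtained for 2 members, RPS10 and RPL17, against 4.7% of all genes tested. These 2 were also the members with every minocycline library below every control library, a pattern seen in 3.56% of all genes. No member had every minocycline library above every control library, against 5.74% of all genes. RPS10 (hg19 chr6:34385231-34393846, minus strand), a protein of the small subunit head, had 15.8, 16.2 and 16.9 CPM in the control libraries and 12.0, 12.1 and 14.0 CPM in the minocycline libraries. Its log2 fold change was -0.36 ± 0.15 (SE), with an unadjusted p of 0.0382 and an adjusted p of 0.820 in edgeR's quasi-likelihood test. RPL17, at the exit of the nascent peptide tunnel, had 26.5, 26.0 and 28.4 CPM in the control libraries and 23.1, 20.01 and 21.5 CPM in the minocycline libraries. Its log2 fold change was -0.33 ± 0.14 (SE), with an unadjusted p of 0.0423 and an adjusted p of 0.820 in edgeR's quasi-likelihood test. Both genes are among the 4 of uncertain assignment. Neither followed the pool in control replicate 1, where RPS10 and RPL17 lay close to the other control libraries.

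**Figure D3:**
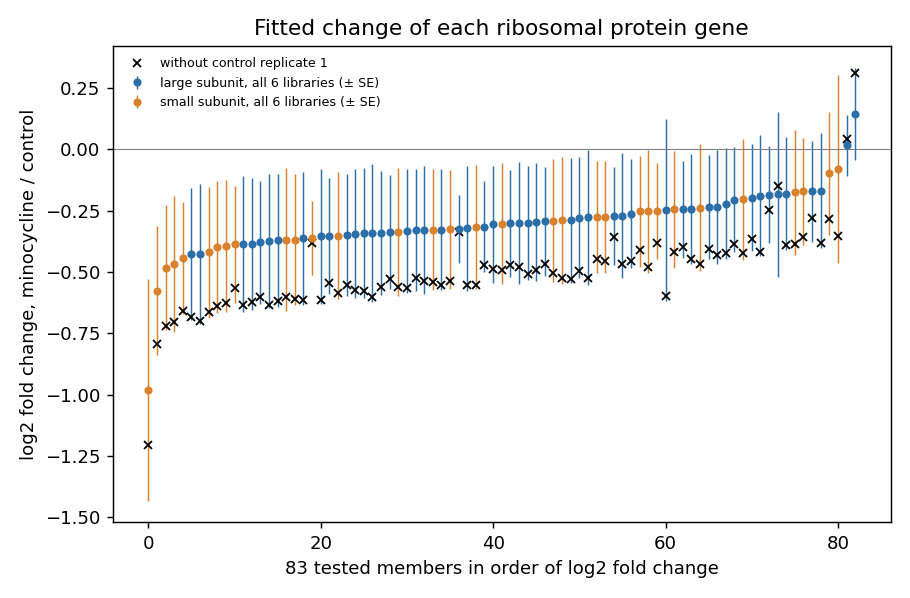
Log2 fold change, minocycline over control (vertical axis), of the 83 tested members in rising order (horizontal axis), with SE bars from the fit of all 6 libraries, for large (blue) and small (orange) subunit genes. Crosses give the same genes without control replicate 1, where the median is -0.51 in place of -0.30.

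Within the batches the members did not move one way. In batch 1 the minocycline library was the higher one, with a median log2 difference of 0.11 over the members and 22 of 83 lower (all genes tested, 46.8% lower). In batch 2 the median was -0.69, with 81 of 83 lower (all genes, 48.5%). In batch 3 it was -0.29, with 79 of 83 lower (all genes, 48.8%). Large and small subunit genes had nearly the same medians in each batch, 0.12 and 0.10 in batch 1, -0.69 and -0.69 in batch 2, and -0.29 and -0.29 in batch 3. Each batch has 1 library per treatment, so these are differences between libraries with no replicate check.

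**Figure D4:**
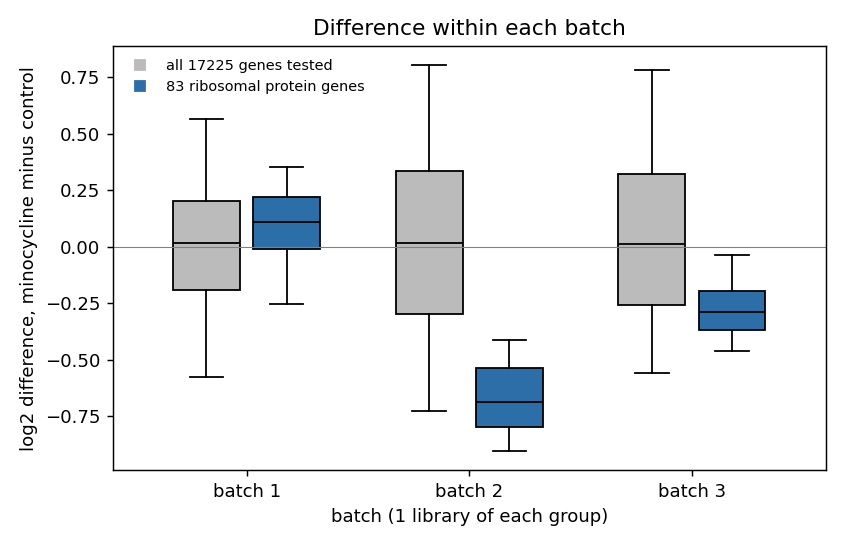
Log2 difference, minocycline minus control (vertical axis), within each batch (horizontal axis) for all 17225 genes tested (grey) and the 83 tested ribosomal protein genes (blue). Boxes span the quartiles around the median and whiskers run from the 5th to the 95th percentile; the member medians are 0.11, -0.69 and -0.29.

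Leaving out control replicate 1 changed the calls. Over all genes, edgeR then called 3154 of 17658 (17.9%), of which 1473 (8.34%) were lower with minocycline. Among the members, 44 of 83 were called lower and none was called higher. Their median log2 fold change was -0.51, and 81 of 83 had lower fitted levels (all genes, 47.2%). The called members comprised 27 of 51 large subunit genes and 17 of 32 small subunit genes. Leaving out any of the other 5 libraries gave 0 members called by edgeR, with 0 to 21 at an unadjusted p under 0.05. The 21 came without minocycline replicate 3, where 406 genes were higher and 457 lower of 17699 tested at that p. The choice of control replicate 1 was made with its position in the data known, so the calls without it are a measure of how much it weighs and not a separate result. Adding 1 surrogate variable, an unlabelled source of variation estimated from all genes, also changed the picture. The median log2 fold change of the members was then 0.01, and 36 of 83 were lower (all genes tested, 49.2%). By edgeR, 0 members were called against 91 of all genes (0.528%), 8 of them lower (0.0464%). At an unadjusted p under 0.05 from edgeR there were 3 of 83 members, against 934 genes higher and 475 lower of 17225. When the summed member counts served as library size, the members' median was -0.02 with 50 of 83 lower (all genes, 13.8%), while the median of all genes tested moved to 0.25. This scaling holds the summed member counts level between libraries, so a small median change of the members is built in. On that scale edgeR called 0 genes of all those tested, with 284 higher and 11 lower at an unadjusted p under 0.05, and none of these was a member.

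By this measure RPS15, RPS26, RPS27L and RPL29 were among the 5 members with the smallest adjusted p without control replicate 1. RPS15, which reaches towards the decoding centre, had 797, 1380.5 and 1551 CPM in the control libraries and 861, 719 and 1088 CPM in the minocycline libraries. The fitted log2 fold change was -0.48 ± 0.25 (SE) with all libraries and -0.72 without control replicate 1, where the adjusted p from edgeR was 0.00762. RPS26, which contacts mRNA at the exit channel, had 333, 533 and 609 CPM in the control libraries and 339.6, 307 and 437 CPM in the minocycline libraries. Its log2 fold change was -0.44 ± 0.23 (SE) with all libraries and -0.66 without control replicate 1 (edgeR adjusted p 0.00784). In both genes control replicate 1 lay below minocycline replicates 1 and 3, and control replicates 2 and 3 lay above all minocycline libraries.

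RPL29, a small basic protein of the large subunit, had 975, 1889 and 2128 CPM in the control libraries and 1181, 990.0 and 1545 CPM in the minocycline libraries. Its start-site tract is shown above. The log2 fold change of RPL29 was -0.43 ± 0.28 (SE) with all libraries and -0.70 without control replicate 1 (edgeR adjusted p 0.0110).

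A few members had fitted changes near or above 0. RPL36A, at the tRNA exit site, was the most positive at 0.14 ± 0.19 (SE), with 13.9, 10.6 and 9.61 CPM in the control libraries and 11.5, 14.2 and 12.0 CPM in the minocycline libraries. RPL7L1 followed at 0.02 ± 0.12 (SE). RPS18 was at -0.08 ± 0.38 (SE) and RPS23, a protein of the decoding centre, at -0.10 ± 0.25 (SE). RPS23 had 434, 594 and 766 CPM in the control libraries and 489.9, 436 and 750.4 CPM in the minocycline libraries. RPSA, which is also known as a laminin receptor, and RPL7 were both at -0.17. Control replicate 1 was the lowest control library for RPS23, RPSA and RPL7, and the groups of each overlapped.

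Members grouped by role had medians close to that of the members as a whole, and no gene of any group was called with all 6 libraries. The stalk, which recruits elongation factors to the large subunit, is built on RPLP0 with RPLP1, RPLP2 and RPL12. All 4 had lower fitted levels, with a median log2 fold change of -0.34. RPLP0, the base of the stalk, had 1474, 2364 and 2669 CPM in the control libraries and 1885, 1644 and 2263 CPM in the minocycline libraries (log2 fold change -0.17 ± 0.23, SE). RPLP2 had 1027, 1814 and 2113 CPM in the control libraries and 1162, 995 and 1634 CPM in the minocycline libraries (log2 fold change -0.39 ± 0.28, SE). Without control replicate 1, 3 of the 4 stalk genes were called lower, beside 44 of 83 members and 8.34% of all genes; RPLP2 was then at -0.64 (edgeR adjusted p 0.0216) and RPLP0 at -0.38 (edgeR adjusted p 0.0859).

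RPL5 and RPL11 bind 5S rRNA, and when ribosome assembly is disturbed the free particle inhibits MDM2 and stabilises p53. RPL5 had 1325, 1867 and 2087 CPM in the control libraries and 1387, 1276 and 1817 CPM in the minocycline libraries. RPL11 had 862, 1416 and 1548 CPM in the control libraries and 988, 839.5 and 1324 CPM in the minocycline libraries. Their log2 fold changes were -0.24 ± 0.21 (SE) and -0.28 ± 0.25 (SE), and the groups overlapped for both genes. RPL11 was called lower without control replicate 1 (-0.50, edgeR adjusted p 0.0452) and RPL5 was not (-0.41, edgeR adjusted p 0.0769).

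The 10 genes whose proteins lie along the nascent peptide tunnel or around its exit were RPL4, RPL17, RPL19, RPL22, RPL23A, RPL26, RPL31, RPL35, RPL38 and RPL39. All 10 had lower fitted levels, with a median of -0.33. Their log2 fold changes ranged from -0.38 to -0.18. The 7 genes of the decoding centre and mRNA channel, among them RPS2, RPS3 and RPS15, also had lower fitted levels, with a median of -0.32 and a range of -0.48 to -0.10. Without control replicate 1, 6 of the 10 and 5 of the 7 were called lower, beside 44 of 83 members and 8.34% of all genes. RPS27A supplies free ubiquitin as well as a ribosomal protein. It had 766, 978 and 1102 CPM in the control libraries and 712, 689 and 992 CPM in the minocycline libraries, and its log2 fold change was -0.25 ± 0.20 (SE).

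Genes mutated in Diamond-Blackfan anaemia, an inherited failure of red cell production, numbered 18 among the members. All 18 had lower fitted levels and their median was -0.34. RPS19, the gene most often mutated in that disorder, had 1366, 2349.8 and 2709 CPM in the control libraries and 1516, 1349 and 2112 CPM in the minocycline libraries. RPS19 had a log2 fold change of -0.37 ± 0.27 (SE) with all libraries and -0.61 without control replicate 1 (edgeR adjusted p 0.0229). Without control replicate 1, 9 of the 18 were called lower, beside 44 of 83 members and 8.34% of all genes.

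The 7 paralogs are related copies of main genes, and whether their proteins replace the main protein in these cells was not tested. Their summed counts were 10985 to 11520 in control libraries and 10791 to 11404 in minocycline libraries, and RPL7L1 made up most of them. As a share of the pool they took 0.875%, 0.574% and 0.513% in the control libraries and 0.764%, 0.875% and 0.579% in the minocycline libraries. The share was highest where the pool was smallest. The median log2 fold change of the 6 tested paralogs was -0.26, and 5 of the 6 had lower fitted levels. Main copies had a median of -0.31.

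A paralog was compared with its main copy by the ratio of their counts in the same library, which needs no scaling between libraries. There were 6 pairs, and with 3 libraries per group the two-sided exact permutation test cannot give a p below 0.1. RPS27L, a p53-inducible copy of RPS27, gave 82.8, 82.1 and 77.1 counts per 1000 of RPS27 in the control libraries and 62.6, 68.4 and 71.0 in the minocycline libraries. The 3 minocycline libraries lay below the 3 control libraries, so any pairing of them gives a negative difference. Within the batches it was -0.40, -0.26 and -0.12 on the log2 scale. The mean log2 difference was -0.26, with an exact permutation p of 0.1, the smallest possible, and 0.6 after adjustment over the 6 pairs. RPS27L itself had 41.2, 68.1 and 72.1 CPM in the control libraries and 33.7, 32.1 and 55.8 CPM in the minocycline libraries. It lies on chromosome 15 (hg19 chr15:63418071-63450220, minus strand). Its log2 fold change was -0.58 ± 0.26 (SE) with all libraries, with an adjusted p of 0.820 from edgeR, and -0.79 without control replicate 1 (edgeR adjusted p 0.0105). RPS27, with 498, 829.8 and 936 CPM in the control libraries and 538, 469.6 and 787 CPM in the minocycline libraries, was at -0.34 ± 0.26 (SE) with all libraries and -0.56 without control replicate 1 (edgeR adjusted p 0.0343).

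The other 5 pairs overlapped between groups. RPL7L1 gave 494, 383 and 350.5 counts per 1000 of RPL7 in the control libraries and 552, 565 and 327 in the minocycline libraries, with an exact permutation p of 0.6. This ratio was high where the pool was small, since RPL7L1 was nearly level and RPL7 was not. RPL26L1 gave 694, 819 and 927 counts per 1000 of RPL26 in the control libraries and 858, 802 and 649 in the minocycline libraries, also with an exact permutation p of 0.6. RPL26 and RPL26L1 encode nearly identical proteins, and 1713 counts stood in pseudogene rows of RPL26 against 8846 in the gene, so how reads divide between these genes is uncertain. RPL22L1 gave 40.9, 34.1 and 34.4 counts per 1000 of RPL22 in the control libraries and 28.1, 41.6 and 36.9 in the minocycline libraries, with an exact permutation p of 0.9. RPL39L gave 12.6, 19.8 and 18.9 counts per 1000 of RPL39 in the control libraries and 19.0, 16.9 and 20.1 in the minocycline libraries, with an exact permutation p of 0.6. RPL3L stayed below 1 count per 1000 of RPL3 in every library.

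**Figure D5:**
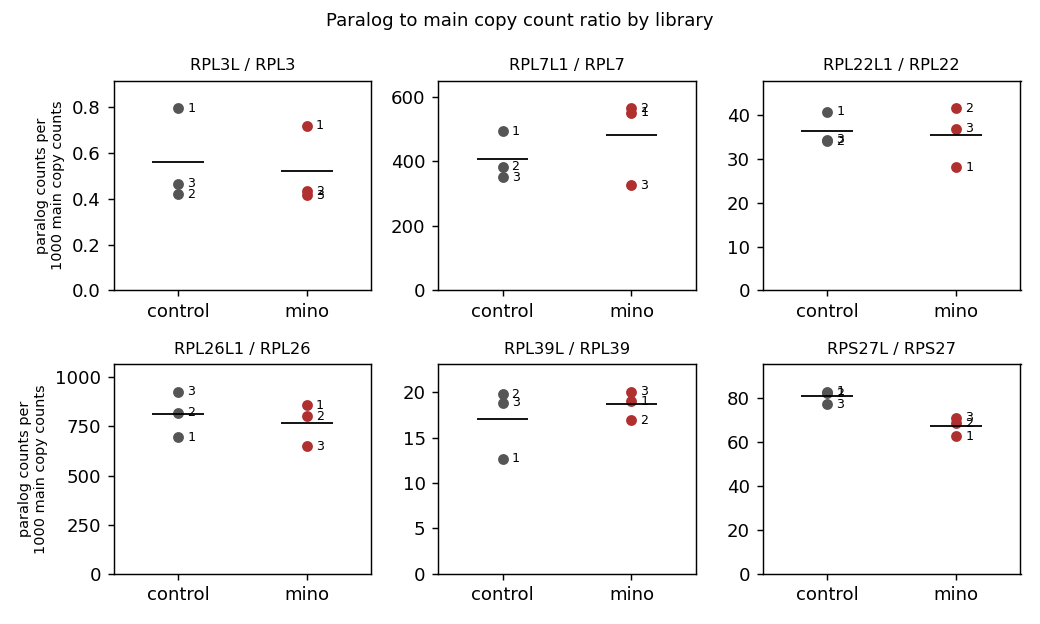
Counts of a paralog per 1000 counts of its main copy (vertical axis, from 0) in control and minocycline (mino) libraries (horizontal axis), 1 panel per pair. Points are libraries labelled with their replicate number, and bars are group means. For RPS27L/RPS27 the minocycline points at 62.6 to 71.0 lie below the control points at 77.1 to 82.8, and in the other panels the groups overlap.

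Ribosomal protein genes outside the symbol rule were examined beside the members. FAU, a fusion of a ubiquitin-like protein to a small subunit protein, had 329, 503 and 568 CPM in the control libraries and 364, 330.1 and 464 CPM in the minocycline libraries. RACK1, a signalling scaffold on the small subunit, had 1534, 2683 and 2955 CPM in the control libraries and 2034, 1729.6 and 2440.1 CPM in the minocycline libraries. RPL36AL, a copy of RPL36A, had 101, 156 and 159 CPM in the control libraries and 93.7, 93.5 and 128 CPM in the minocycline libraries. Log2 fold changes were -0.27 ± 0.21 (SE) for FAU, -0.21 ± 0.25 (SE) for RACK1 and -0.40 ± 0.20 (SE) for RPL36AL, none was called with all libraries, and the groups overlapped for each of these genes. Without control replicate 1, edgeR called FAU (-0.47, adjusted p 0.0314) and RPL36AL (-0.58, adjusted p 0.0110) lower, beside 8.34% of all genes called lower. RACK1 was then at -0.45 (edgeR adjusted p 0.0524).

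Other mRNAs known to carry the tract, chiefly of translation factors, had 9 of 16 tested genes lower and a median log2 fold change of -0.01, and none was called with all libraries. Without control replicate 1 the median was -0.11. In that fit 2 of 16 were called, EIF3F and TPT1, both lower, beside 8.34% of all genes called lower. EEF1G, with 1 count in all, was not tested. Within this list TPT1, a growth-related protein, was the lowest at -0.34 ± 0.25 (SE), and at -0.57 without control replicate 1 (edgeR adjusted p 0.0276). It had 439, 719.6 and 831 CPM in the control libraries and 466, 429 and 677 CPM in the minocycline libraries. The highest was EIF2S3, a subunit of the initiation factor that delivers the first tRNA, at 0.30 ± 0.12 (SE), with 617, 617 and 614 CPM in the control libraries and 763, 755 and 751 CPM in the minocycline libraries. EEF1A1, which brings aminoacyl-tRNA to the ribosome, had 8830.1 to 12960 CPM in the control libraries and 10025 to 12248 CPM in the minocycline libraries, and a log2 fold change of -0.02 ± 0.21 (SE). Proteins that bind the tract and chaperones dedicated to ribosomal proteins had 8 of 14 genes lower and a median of -0.03, and none was called with all libraries. In the fit without control replicate 1, 3 of the 14 were called, AAMP and TSR2 lower and LARP4 higher. Over all genes that fit called 17.9% in either direction, so the list lay near that share. LARP1, which binds the tract, was at 0.18 ± 0.18 (SE).

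By the letter match at annotated starts, members with and without the tract had similar medians. The median log2 fold change was -0.31 over 54 tested members with the tract and -0.32 over 12 tested members without it. Members with and without CCGGAAG had medians of -0.31 and -0.32. RPS15, RPS26 and RPS27L, 3 of the genes with the lowest values, were among those without a match to the tract. So was RPL7L1, which had 1 of the highest values. A member without a match may carry the tract at another start, and whether the tract bears on the change was not tested.

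Genes without an RPL or RPS symbol were ranked by how closely their log2 level followed the pool share over the 6 libraries. The closest were COX5B (Pearson r 0.999), DYNLT1 (0.998), NAA10 (0.998), FAU (0.997), itself a ribosomal protein gene, and TPT1 (0.996). They were found among 2256 candidates averaging 100 CPM or more, and over 6 libraries many genes reach high values. COX5B, a subunit of cytochrome c oxidase, had 114, 182 and 213 CPM in the control libraries and 125, 112 and 175 CPM in the minocycline libraries.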

How the data were processed

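Paired-end RNA-seq libraries were made from total RNA of 6 HEK293 cultures with a NEBNext Ultra II kit, per the labels' protocols. The authors deposited whole-number counts per gene with no normalization, and the genome build was hg19 per the submitters' processing notes. The aligner, the counting program, RNA selection and use of strand are not given in the sources used here. Of 57820 rows, 55538 matched a symbol, and positions and lengths came from GENCODE release 44 on GRCh37. Groups and replicate numbers came from the sample titles.

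Genes were filtered with filterByExpr, scaled with TMM factors and tested with edgeR 4.0.16 in R 4.3.3 (glmQLFit and glmQLFTest, treatment as the single term, all 6 libraries). A gene was called at a Benjamini-Hochberg adjusted p under 0.05 over the 17225 genes tested. CPM values are TMM-scaled, an SE is the log2 fold change divided by the square root of F, and differences within a batch used log2(CPM + 0.5). The scripts were tested on simulated data. Ratios of paralog to main copy counts were tested by exact permutation, two-sided. Total counts per library ran from 17303180 to 17835756.

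The members and lists were chosen with earlier results of these data known, so lists are described by counts and medians without a test. Genes were named by rule: the 5 highest and 5 lowest levels per kb, the 3 smallest and 3 largest p and the 3 extreme fold changes on each side per subunit, the paralogs, examples of each role, the 5 steadiest and 5 most variable shares of the pool, and the 5 genes most like the pool. RPL29, RPS15, RPS26 and RPS27L were also ranked without control replicate 1, after their values were seen. Some genes that the rule selects are not reported here. Replicate numbers are batch labels, so an alternative fit took the number as a block. As a check of this pairing, deviations from the group means correlated by -0.05, -0.29 and 0.30 in same-numbered pairs, so these did not deviate together in every pair. Alternatives were other scalings, DESeq2 1.42.0, limma-voom (limma 3.58.1), other filters, length and GC offsets, 1 surrogate variable (sva 3.50.0) and each library left out. Scaling by the summed member counts was added after seeing the data.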

Additional observations from a re-analysis of the deposited data

How the results depend on the processing

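Across the settings, 0 members were called except when control replicate 1 was left out. Leaving out 1 library gave 0 to 44 members called and 1 to 3154 genes called over all. In fits of all 6 libraries, members at an unadjusted p under 0.05 from edgeR ran from 0 with total counts to 38 of 84 with no filter. With no filter, 929 genes were higher and 1105 lower of 33543 at that p. With length and GC correction and the replicate block there were 24 of 83 members, against 760 genes higher and 904 lower of 17225. Over all genes the 9 calls became 50 with DESeq2, 94 with no filter on low counts, 26 with length and GC correction, 35 with that correction and the replicate block, 91 with 1 surrogate variable, and 0 with the ribosomal protein pool as library size. With the replicate block alone, edgeR called 13 genes and 0 members, 81 of 83 members were lower, and no call on a member changed under this pairing. Members with a lower fitted level numbered 36 with 1 surrogate variable, 50 with the pool as library size, and 76 to 81 with 1 library left out. The pool scale is made from the members' own counts, so their small change on it is built in. The paralog median was 0.013 with the pool as library size.

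With 1 surrogate variable, 22 of 32 named members changed sign. Their log2 fold changes were RPL3 0.13, RPL5 0.013, RPL7 0.0057, RPL10 0.088, RPL11 0.056, RPL12 0.071, RPL13 0.035, RPL28 0.079, RPL29 0.020, RPL39 0.038, RPL39L 0.40, RPLP0 0.15, RPLP1 0.046, RPLP2 0.021, RPS2 0.12, RPS18 0.37, RPS19 0.014, RPS23 0.21, RPS27 0.024, RPSA 0.10, RPL36A -0.011 and RPL7L1 -0.025. RPL7L1 was also negative at -0.00073 with RLE factors, -0.00074 with DESeq2, -0.00085 with no filter, -0.092 with length and GC correction and -0.091 with that correction and the replicate block. RPS18 was at 0.00080 with total counts. The cause was not tested.

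Leaving out 1 library gave log2 fold changes of -0.60 to 0.029 for RPL39L, -0.51 to 0.022 for RPL3L, -0.012 to 0.056 for RPL7L1, -0.57 to 0.14 for RPS18 and -0.38 to 0.11 for RPS23. It gave log2 changes in the count ratio of -0.34 to 0.20 for RPL3L to RPL3, -0.17 to 0.11 for RPL22L1 to RPL22, -0.19 to 0.038 for RPL26L1 to RPL26 and -0.052 to 0.27 for RPL39L to RPL39. The ratio of RPS27L to RPS27 stayed between -0.30 and -0.21, where the sign follows from the separation of the groups. The share of counts from the pool differed by -0.42 to -0.05 on the log2 scale. Depth limits RPL3L and RPL10L, with at most 34 counts per library.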
